A study of Mus musculus with 2 samples.

Results

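Retnla, Chil3, Mrc1, Cd163, Folr2, Mgl2 and Il4ra are 7 genes that are widely used to mark alternative activation of mouse macrophages. They were taken by name from the 32285 gene rows of 2 droplet single-cell RNA-seq libraries, whatever their counts, and each had 1 row in both. Cells came from CT26 tumours, grown from a mouse colon carcinoma line, in BALB/c mice. One library was from PTIR1-expressing tumours and the other from mock tumours, and both were labelled as cells that infiltrate the tumour. PTIR1 appears in the series title as a suppressor of the immunoproteasome, the form of the proteasome that interferon induces. No gene row carries the name PTIR1, so its expression could not be checked. The labels used here give neither the number, age or sex of the mice nor whether tumours were pooled. With 1 library per group there is no replicate and no test. Intervals below are 95% intervals that cover counting error only, and genotype, tumour and library cannot be told apart.

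Alternative activation is the state that macrophages enter when interleukin 4 or interleukin 13 binds the receptor chain encoded by Il4ra, which signals through Stat6. Retnla and Chil3 encode secreted proteins, a resistin-like molecule and a chitinase-like lectin, and both are classical Stat6 targets in mouse macrophages. Mrc1 and Mgl2 encode C-type lectins that take up glycoproteins, Cd163 encodes the scavenger receptor for haptoglobin and haemoglobin complexes, and Folr2 encodes a folate receptor. Cd163 and Folr2 are better known as markers of tissue-resident macrophages. Chil3 is also made by monocytes and by developing neutrophils, and Mgl2 by type 2 conventional dendritic cells. In tumours these genes mark macrophages that are often described as supporting growth and repair.

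The promoters of 4 of the genes are shown because the largest differences between the libraries, or the least settled one, were theirs. Each runs from 250 bases before to 50 bases after the transcription start in RefSeq, build GRCm38.p6, and is read 5′ to 3′ on the strand of the gene. Capitals mark matches to the STAT6 letters (TTC, then any 4 bases, then GAA), the C/EBP letters TTGCNNAA or the TATA letters TATAAA, searched on both strands. The regions are chr16:48842359-48842658 on the plus strand for Retnla, chr3:106167515-106167814 on the minus strand for Chil3, chr6:124304401-124304700 on the plus strand for Cd163 and chr11:70130107-70130406 on the plus strand for Mgl2.
Retnla promoter: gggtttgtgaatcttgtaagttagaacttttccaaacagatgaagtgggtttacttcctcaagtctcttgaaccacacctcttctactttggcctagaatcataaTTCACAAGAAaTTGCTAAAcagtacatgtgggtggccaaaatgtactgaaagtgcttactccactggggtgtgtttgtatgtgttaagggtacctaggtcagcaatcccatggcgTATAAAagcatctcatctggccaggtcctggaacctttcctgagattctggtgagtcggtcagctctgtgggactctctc
Chil3 promoter: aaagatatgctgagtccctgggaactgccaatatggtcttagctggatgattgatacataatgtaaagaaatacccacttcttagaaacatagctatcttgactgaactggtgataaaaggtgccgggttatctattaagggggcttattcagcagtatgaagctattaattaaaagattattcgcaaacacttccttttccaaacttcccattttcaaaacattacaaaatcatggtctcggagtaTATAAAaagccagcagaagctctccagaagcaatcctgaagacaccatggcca
Cd163 promoter: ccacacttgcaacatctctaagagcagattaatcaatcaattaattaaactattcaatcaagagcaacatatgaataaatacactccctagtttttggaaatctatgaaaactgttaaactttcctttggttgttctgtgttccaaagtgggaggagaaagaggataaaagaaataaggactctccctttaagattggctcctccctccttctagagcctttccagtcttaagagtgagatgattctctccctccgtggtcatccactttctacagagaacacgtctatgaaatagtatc
Mgl2 promoter: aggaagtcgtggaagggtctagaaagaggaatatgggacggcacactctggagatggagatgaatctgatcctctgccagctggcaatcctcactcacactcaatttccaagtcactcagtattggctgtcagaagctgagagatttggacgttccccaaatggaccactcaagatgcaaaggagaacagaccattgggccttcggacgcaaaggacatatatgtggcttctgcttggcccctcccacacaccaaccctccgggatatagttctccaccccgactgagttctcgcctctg

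The Retnla window held 1 STAT6 match, TTCACAAGAA, from 145 to 136 bases before the start. Next to it, without overlap, stood 1 C/EBP match, TTGCTAAA, from 134 to 127 bases before the start. A TATAAA followed 30 to 25 bases before the start. The Chil3 window held only a TATAAA, which began 3 bases before the annotated start and ran past it into the transcript. The Cd163 and Mgl2 windows held none of the 3 sets of letters. Of 32851 promoters of this length, 6.95% held the STAT6 letters, 10.8% the C/EBP letters and 13.6% the TATA letters. A match is a description of these letters and not a bound site.

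In the gene annotation of build GRCm38 all 7 are protein-coding genes. Retnla lies on chromosome 16 (48842551-48844461, plus strand) beside its family members Retnlb and Retnlg, and Chil3 on chromosome 3 (106147554-106167564, minus strand) near Chil4. Mrc1 is on chromosome 2 (14229392-14332057, plus strand), Cd163 on chromosome 6 (124304656-124330527, plus strand) and Mgl2 on chromosome 11 (70130329-70137550, plus strand) near Clec10a. Folr2 (101839988-101857194, minus strand) and Il4ra (125552120-125579474, plus strand) are both on chromosome 7. Reads of this assay come from the 3′ end. Within the last 500 bases of their transcripts, 15.7% of 60-base windows of Chil3 also occur in Chil4 or Gm6522, and 6.33% of those of Mgl2 in Clec10a or 3 other genes. The other 5 genes shared none. Chil4 had 0 UMIs in the macrophage, monocyte, immature neutrophil and dendritic gates of both libraries.

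A gate here is a class of barcodes set by marker transcripts and not by sorting. For 16 lists of markers the UMIs of a list were scaled to their 99th percentile, and a barcode joined the list with the highest score if that score passed 0.2 and at least 3 markers were seen. No member is in any of these lists. After filters the PTIR1 library kept 7480 of 9006 barcodes (median 6924.5 UMIs) and the mock library 8632 of 10833 (median 3169.5 UMIs). The macrophage gate held 1336 PTIR1 and 2071 mock barcodes, with medians of 11030 and 10337 UMIs. The monocyte gate held 880 and 1280 barcodes, the immature neutrophil gate 72 and 3, and the dendritic gate, which joins cDC1, cDC2, mature and plasmacytoid lists, 232 and 212. Gates are ranges of a score: 386 PTIR1 and 501 mock barcodes of the macrophage gate lay within 1.5 times the cut, and 49.5% and 51.2% of the monocyte gates also passed the macrophage cut. The 2 libraries shared 30 barcode sequences, which held 174 UMIs of the members in PTIR1 and 34 in mock.

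Markers of other cells were present in these gates and differed between the libraries. Levels are given as UMIs per 1000000 UMIs of the gate, written CPM. In the macrophage gate the 7 mature neutrophil markers summed to 704 CPM in PTIR1 and 273 CPM in mock, and the 7 fibroblast markers to 41.5 and 8.26 CPM. The 7 NK cell markers summed to 347 and 155 CPM, and the 9 mast cell and basophil markers to 21.3 and 85.8 CPM. Immature neutrophil markers were close, at 187 and 194 CPM, as were cDC2 markers, at 67.0 and 68.5 CPM. The libraries also held a fibroblast gate of 644 PTIR1 and 44 mock barcodes. The macrophage markers themselves summed to 6287 CPM in PTIR1 and 7284 CPM in mock, with none of the 11 at 0. In the monocyte gate the 6 monocyte markers summed to 5722 and 6993 CPM, also with none at 0. The part of these differences in the results below was not tested, except where barcodes without such markers are given.

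Most of the 7 genes were higher in PTIR1 macrophages and monocytes than in mock, but the sizes fell into separate ranges. In the macrophage gate Chil3 and Cd163 were about 4 and 5 times higher, Mrc1, Folr2 and Il4ra about 1.3 times higher, and Mgl2 was lower. In that gate 6 members reached 50 UMIs over both libraries, of which 2 were at least 2-fold higher and 0 at least 2-fold lower in PTIR1. Among all 11167 genes with 50 UMIs there, 2.71% were at least 2-fold higher and 0.770% at least 2-fold lower. The members' median log2 ratio was 0.35, beside -0.01 for all genes. In the monocyte gate all 7 members were measured and higher, 4 of them at least 2-fold and 0 at least 2-fold lower, where 3.30% and 0.910% of 10222 genes passed the same marks. The median there was 1.61, beside 0.00 for all genes. Retnla reached the minimum there through the PTIR1 library alone, and so did Cd163, with 113 PTIR1 and 3 mock UMIs. In macrophages the mock library alone would not have brought Cd163 to the minimum either (172 PTIR1 and 44 mock UMIs). These counts thus describe the members and support nothing further.

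**Figure D1:**
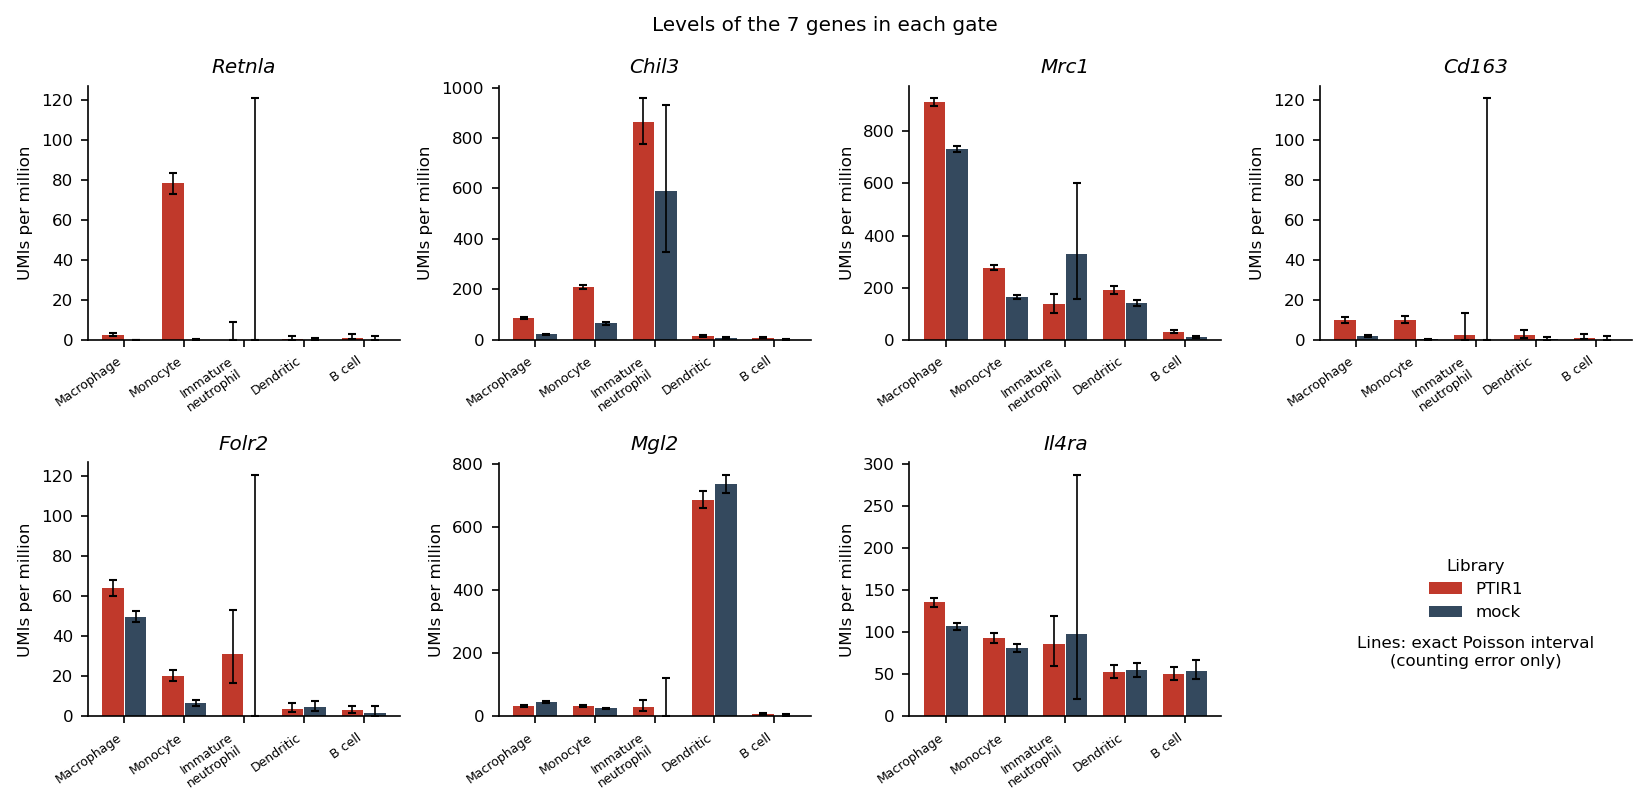
Level of each gene in UMIs per 1000000 UMIs of the gate (y axis, from 0) in 4 myeloid gates and, as a background, the B cell gate (x axis), with PTIR1 bars left of mock bars and lines for exact Poisson 95% intervals. Mrc1, Folr2 and Il4ra stood highest in the macrophage gate of the PTIR1 library, Mgl2 in the dendritic gate and Chil3 in the immature neutrophil gate, while Retnla was seen almost only in PTIR1 monocytes, where 1 barcode held 865 of 883 UMIs.

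Retnla was nearly a property of single cells. The macrophage gate held 43 Retnla UMIs in 18 PTIR1 barcodes and 0 UMIs in mock. Of these 43 UMIs, 3 barcodes held 12, 8 and 6. The monocyte gate held 883 UMIs in 13 PTIR1 barcodes and again 0 in mock. In CPM these are 2.48 and 0 in the macrophage gate and 78.2 and 0 in the monocyte gate. Against a floor of 3 UMIs in the mock gate, Retnla was at least 19.3-fold higher in PTIR1 macrophages and at least 340-fold higher in PTIR1 monocytes. The second value rests on 1 barcode: without its 865 UMIs the PTIR1 monocyte gate kept 18 UMIs, or 1.60 CPM, and the bound fell to 2.80 on the log2 scale. The macrophage value is close to the background, since the PTIR1 B cell gate, which should lack Retnla, held 1.08 CPM (0.293 to 2.76) beside 2.48 CPM (1.80 to 3.34) in macrophages. After thinning every barcode to 5000 UMIs, 0.648% of PTIR1 macrophage barcodes and 0.400% of PTIR1 B cell barcodes had a Retnla UMI. The dendritic gate held 2 PTIR1 and 0 mock UMIs, and the immature neutrophil gate 0 in both.

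Over all kept barcodes Retnla had 1347 UMIs in 78 PTIR1 barcodes and 15 UMIs in 3 mock barcodes. In PTIR1, 61 of the 78 carried a single UMI. The 14 PTIR1 barcodes with at least 5 Retnla UMIs held 1280 of the 1347 UMIs, and their median depth was 23953 UMIs. Of these, 5 carried markers of more than 1 lineage, 4 were in no gate, 3 were macrophages and 2 monocytes. The top barcode, at 865 Retnla UMIs, had 41056 UMIs in all, among them 2142 of Lyz2 (lysozyme), 364 of Fn1 (fibronectin), 78 of Vcan (versican), 40 of Ccl24 and 27 of Ccr2, the chemokine receptor of blood monocytes. It had 0 UMIs of Ly6c2, C1qa and Arg1. The next barcode had 198 Retnla UMIs with 109 of C1qa, 22 of Folr2 and 9 of Cd163, and carried markers of more than 1 lineage. The barcodes with most Retnla thus differed in which macrophage and monocyte transcripts they held.

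**Figure D2:**
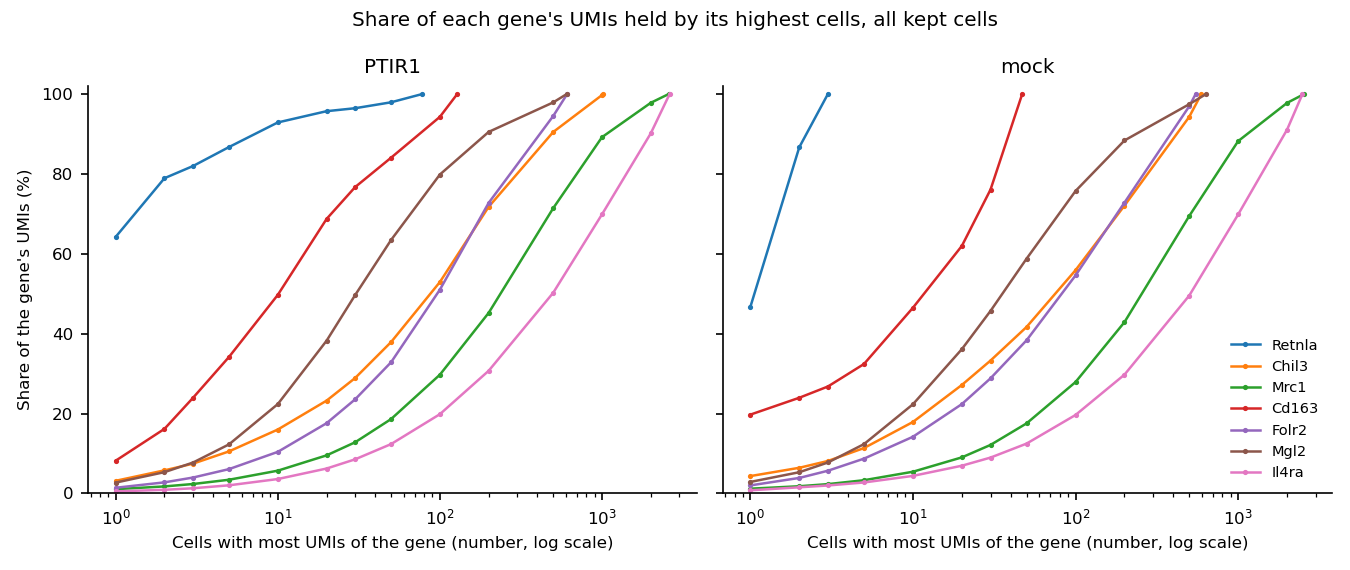
Share of each gene's UMIs (y axis, percent) held by the barcodes with most of them (x axis, number on a log scale), in all kept barcodes of the PTIR1 library on the left and the mock library on the right. The top 10 PTIR1 barcodes held 92.9% of Retnla, 49.7% of Cd163 and 22.4% of Mgl2 UMIs, but 5.68% of Mrc1 and 3.59% of Il4ra UMIs.

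Chil3 was higher in PTIR1, and it was carried by many cells. In the macrophage gate it had 1504 UMIs (86.8 CPM) in PTIR1 and 522 UMIs (22.3 CPM) in mock, a ratio of 3.88 (3.51 to 4.30). The monocyte gate had 2376 UMIs (210 CPM) in PTIR1 and 849 UMIs (65.1 CPM) in mock, a ratio of 3.23 (2.99 to 3.50). Monocytes thus stood above macrophages in both libraries. At 5000 UMIs per barcode, 14.9% of PTIR1 and 6.78% of mock macrophage barcodes had a Chil3 UMI, and 29.5% and 17.3% of monocyte barcodes. Thinning left out 410 PTIR1 and 802 mock macrophage barcodes, and without thinning the macrophage shares were 19.9% and 9.32%. In the B cell gate, at medians of 4490.5 and 4238 UMIs, 4.34% of PTIR1 and 0.514% of mock barcodes had one. That background was also higher in PTIR1, at 8.62 and 1.17 CPM, and both macrophage levels stood above it.

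Because Chil3 is also a gene of developing neutrophils, it was read again in barcodes without their markers. In macrophage barcodes with no UMI of the 7 immature neutrophil markers, Chil3 stood at 77.0 CPM in 698 PTIR1 barcodes and 14.5 CPM in 1248 mock barcodes, a ratio of 5.31 (4.43 to 6.41). The monocyte ratio under the same limit was 3.48 (2.86 to 4.26). With the mature neutrophil markers also absent, the macrophage ratio was 3.37 (2.10 to 5.45) over 189 PTIR1 and 558 mock barcodes. The monocyte ratio then was 1.51 (0.909 to 2.49), from 29 UMIs in 112 PTIR1 barcodes and 42 UMIs in 294 mock barcodes. The depths of these macrophage barcodes were unequal, with medians of 7942 UMIs in PTIR1 and 2446.5 in mock without the immature markers, and 2523 and 1375 without both lists. The monocyte difference was within counting error in the smallest subset.

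In the immature neutrophil gate Chil3 reached 865 CPM in PTIR1 (363 UMIs, 182 of them in 1 barcode) and 590 CPM in mock (18 UMIs, all in 1 of 3 barcodes). The ratio was 1.47 (0.914 to 2.50). Of 1148 genes measured there, 21.8% were at least 2-fold higher and 8.19% at least 2-fold lower in PTIR1, so 3 mock barcodes give little ground for any comparison. Of 2 members measured, 0 were at least 2-fold higher and Mrc1 was lower, at 136 CPM (57 UMIs) in PTIR1 and 328 CPM (10 UMIs in 1 barcode) in mock. Its ratio was 0.414 (0.210 to 0.910).

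Cd163 was rare and much higher in PTIR1. The macrophage gate held 172 UMIs in 53 PTIR1 barcodes and 44 UMIs in 25 mock barcodes, which are 9.92 and 1.88 CPM and a ratio of 5.27 (3.77 to 7.52). At equal depth 2.48% of PTIR1 and 0.552% of mock macrophage barcodes had a Cd163 UMI, against 3.97% and 1.21% without thinning. The B cell gate held 1.08 CPM in PTIR1 and 0 UMIs in mock. In the monocyte gate 113 UMIs in 13 PTIR1 barcodes stood against 3 UMIs in 3 mock barcodes, or 10.0 and 0.230 CPM, with a ratio of 43.5 (14.5 to 214). The top 10 PTIR1 barcodes held 97.3% of those UMIs, and the share of monocyte barcodes with one at equal depth was 0.829% in PTIR1 and 0.122% in mock. Without the 1% of barcodes that held most Cd163, 4 UMIs remained in PTIR1 and 0 in mock. Against a floor of 3 mock UMIs that gives 0.63 on the log2 scale, a value set by the floor, which does not show that the difference was smaller. The PTIR1 monocyte UMIs thus sat in a few barcodes. The macrophage ratio lay between 2.10 and 4.12 on the log2 scale over the 19 alternatives that gave a value.

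Folr2 was higher in both gates with all UMIs counted. Macrophage levels were 64.1 CPM (1111 UMIs) in PTIR1 and 49.9 CPM (1166 UMIs) in mock, a ratio of 1.28 (1.18 to 1.40). Monocyte levels were 20.2 CPM (228 UMIs) and 6.59 CPM (86 UMIs), a ratio of 3.06 (2.38 to 3.97). At equal depth 15.4% of PTIR1 and 13.3% of mock macrophage barcodes had a Folr2 UMI, but 5.31% and 1.83% of monocyte barcodes. With barcodes thinned to 1000 UMIs, macrophages held 56 Folr2 UMIs in 1258 PTIR1 and 76 in 1717 mock barcodes. The macrophage log2 ratio was then 0.008, the lowest of 20 alternatives, which reached up to 0.70. In the B cell gate the levels were 2.96 and 1.76 CPM. The macrophage and monocyte ratios of Folr2 have intervals that do not meet, although the difference between gates was not tested over samples. In monocyte barcodes with no UMI of both neutrophil lists it was 1.10 (0.337 to 3.15), from 6 PTIR1 and 12 mock UMIs, and the macrophage ratio was then 1.48 (1.18 to 1.85).

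Mrc1, the mannose receptor, was the deepest counted member and differed little in the macrophage gate as a whole. Its level was 913 CPM (15827 UMIs) in PTIR1 and 731 CPM (17089 UMIs) in mock macrophages, a ratio of 1.25 (1.22 to 1.28). In macrophage barcodes without the immature neutrophil markers the ratio was 1.48 (1.43 to 1.54), at the unequal depths given above. Without both neutrophil lists it was 1.81 (1.69 to 1.93). The log2 ratio ranged from 0.17 to 0.85 over 20 alternatives. Monocytes had 277 CPM (3129 UMIs) and 164 CPM (2139 UMIs), a ratio of 1.69 (1.60 to 1.79). At equal depth 72.2% of PTIR1 and 67.4% of mock macrophage barcodes and 37.5% and 24.5% of monocyte barcodes had a UMI, against 10.4% and 2.0% of B cell barcodes. Counted over all kept barcodes together, Mrc1 stood at 288 CPM in PTIR1 and 296 CPM in mock, and macrophages were 17.9% of PTIR1 and 24.0% of mock barcodes.

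Il4ra, the receptor chain that starts the pathway, was also slightly higher. In macrophages it had 135 CPM (2347 UMIs) in PTIR1 and 107 CPM (2505 UMIs) in mock, a ratio of 1.26 (1.19 to 1.34), and in monocytes 92.8 and 80.9 CPM, a ratio of 1.15 (1.05 to 1.25). At equal depth its UMIs were in 39.4% of PTIR1 and 37.8% of mock macrophage barcodes. B cells express this receptor too, and their gate had 50.6 and 54.4 CPM. Every alternative left the ratio above 1 in both gates, with log2 values of 0.28 to 0.47 in macrophages and 0.08 to 0.31 in monocytes.

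Mgl2 was the member whose direction was not settled. In the macrophage gate it had 32.9 CPM (570 UMIs) in PTIR1 and 45.3 CPM (1058 UMIs) in mock, a ratio of 0.726 (0.655 to 0.805). Its log2 ratio there, -0.46, turned to 0.13 with each barcode weighing the same. It turned to 0.26 with barcodes thinned to 1000 UMIs (43 PTIR1 and 49 mock UMIs), and it was 0.80 without both neutrophil lists. In barcodes with no UMI of the 6 cDC2 markers it was 15.4 and 31.0 CPM, a ratio of 0.498 (0.401 to 0.614). In monocytes it had 31.5 and 25.1 CPM, a ratio of 1.25 (1.08 to 1.46). On the log2 scale this turned to -1.11 with the gate cut doubled and -0.22 with thinned barcodes (19 PTIR1 and 29 mock UMIs). There 10 barcodes held 73.0% of PTIR1 and 68.0% of mock UMIs. Clec10a, the neighbouring lectin gene of the same family, had 14.3 and 12.5 CPM in macrophages (1.14, 0.960 to 1.36) and 8.15 and 11.3 CPM in monocytes (0.723, 0.551 to 0.944).

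Dendritic cells differed in another way. Of 4 members measured in that gate, 1 was at least 2-fold higher and 0 at least 2-fold lower in PTIR1, where 1.60% and 0.613% of 8488 genes were. That member was Chil3, with 53 UMIs (14.6 CPM) in PTIR1 and 21 UMIs (6.23 CPM) in mock, a ratio of 2.35 (1.39 to 4.10). Chil3 reached the minimum for a measured gene through the PTIR1 library alone, and the mock library alone would not have brought it there. The count of members in this gate thus describes them and supports nothing further. Of the 53 UMIs, 31 sat in 1 barcode of the plasmacytoid gate. That gate held 43 PTIR1 and 1 mock Chil3 UMIs in all. In cDC1 Chil3 was lower in PTIR1, with 4 UMIs against 16 in mock, a ratio of 0.230 (0.0561 to 0.714). The mature gate held 6 and 3 UMIs, and cDC2 0 and 1. Mgl2 had 2490 UMIs (687 CPM) and 2487 UMIs (738 CPM), a ratio of 0.932 (0.881 to 0.985), and Il4ra 53.0 and 54.9 CPM. Mrc1 stood at 192 and 141 CPM, a ratio of 1.36 (1.21 to 1.54). Cd163 had 9 UMIs in PTIR1 and 1 in mock, and Folr2 14 and 16.

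Within the dendritic gate most Mgl2 came from the 46 PTIR1 and 54 mock cDC2 barcodes, where 87.0% and 92.6% carried it. The level there was 2494 CPM in PTIR1 and 1963 CPM in mock, a ratio of 1.27 (1.196 to 1.35). Mrc1 in the same barcodes was 550 and 248 CPM, a ratio of 2.22 (1.91 to 2.58). The other parts of the gate differed for Mrc1. Its ratio was 0.686 (0.516 to 0.908) in the cDC1, 0.646 (0.429 to 0.971) in the mature and 4.36 (2.58 to 7.79) in the plasmacytoid gate. In the plasmacytoid gate 49 of 78 PTIR1 and 45 of 72 mock barcodes also scored on another marker list, below the mark for mixed barcodes. The part of this in the Mrc1 ratio was not tested. In the mature dendritic gate Mgl2 had 244 UMIs in PTIR1 and 37 in mock, or 282 and 66.2 CPM, with 81 of the 244 in 1 barcode. In cDC1 it was lower, at 117 and 174 CPM, and the joint dendritic value joins these unlike parts. The 41 to 78 barcodes of each such class make these levels sensitive to single cells.

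When macrophage and monocyte barcodes of both libraries were set in order by the balance of their marker scores and divided into 5 bins, the members followed 3 courses. Mrc1 climbed along the order to 1262 CPM in PTIR1 and 935 CPM in mock in the bin with most macrophage signal, with 183 and 94.2 CPM in the first bin. Folr2 took the same course, at 100 and 83.3 CPM in the last bin and 13.9 and 5.09 CPM in the first. Il4ra also did, at 172 and 123 CPM in the last bin and 82.0 and 72.2 CPM in the first.

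Chil3 ran the other way, at 238 CPM in PTIR1 and 78.7 CPM in mock in the first bin and 76.7 and 8.69 CPM in the last. Cd163 had no steady course in PTIR1, where it stood at 5.92, 13.4, 2.65, 8.35 and 19.3 CPM from first to last. In mock it was 0 UMIs in the first bin and 3.09 CPM in the last. For Mgl2 the order gave 46.9 CPM in the first and 42.9 CPM in the last PTIR1 bin with lower values between them, and 20.3 and 63.0 CPM in mock. The Mgl2 ratio therefore changed side along the order, which was not tested.

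**Figure D3:**
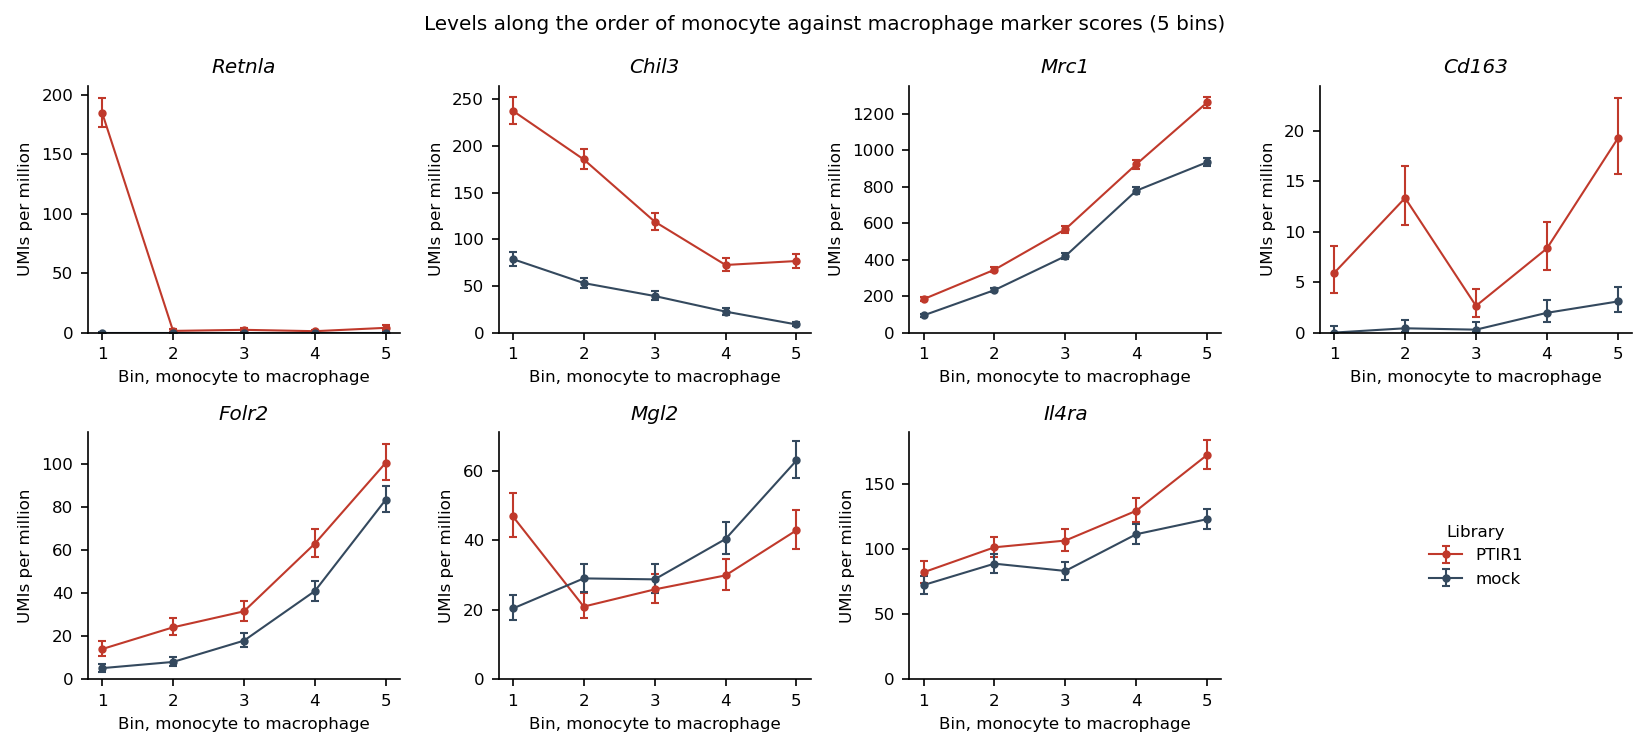
Level of each gene in UMIs per 1000000 UMIs (y axis) in 5 bins of macrophage and monocyte barcodes ordered from monocyte to macrophage marker scores (x axis), PTIR1 in red and mock in dark blue, with exact Poisson 95% intervals. Mrc1 and Folr2 climb in both libraries, Chil3 declines in both with PTIR1 above mock in each bin, and the Retnla point of 185 CPM in the first PTIR1 bin contains the barcode with 865 UMIs.

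Tumour macrophages of these libraries also differ in complement genes (C1qa, C1qb, C1qc) and in Arg1, the arginase that is itself a type 2 target. Arg1 was 3206 CPM in PTIR1 and 2466 CPM in mock macrophages, and Arg1 high barcodes were 809 of 1336 in PTIR1 and 894 of 2071 in mock. Barcodes with a C1q UMI were 579 of 1336 in PTIR1 and 1051 of 2071 in mock. Folr2 stood at 97.1 CPM in PTIR1 and 62.7 CPM in mock barcodes with C1q, and at 30.4 and 35.4 CPM without. Cd163 was 13.8 and 2.42 CPM with C1q and 5.94 and 1.27 CPM without. Mrc1 differed more by Arg1 than by C1q, at 1073 and 990 CPM in Arg1 high and 603 and 487 CPM in Arg1 low barcodes.

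Dividing by both measures gave the ratios inside the states. Chil3 was higher in PTIR1 in each of the 4 subgroups, with ratios of 2.55 where C1q was seen and Arg1 was high, 3.32 where C1q was seen and Arg1 was low, 5.28 without C1q and with high Arg1, and 4.46 with neither. Cd163 was as well, with ratios in the same order of 2.98, 14.3, 3.50 and 8.30. The last rests on 4 PTIR1 UMIs and 1 mock UMI, and its interval (0.821 to 409) includes 1. Folr2 had ratios of 1.57 and 1.54 where C1q was seen. Where it was not, they were 0.885 (0.732 to 1.07) and 0.620 (0.436 to 0.866). Mgl2 was 0.953 (0.797 to 1.14) and 0.842 (0.689 to 1.03) in Arg1 high subgroups and 0.470 and 0.519 in Arg1 low subgroups. Where Mgl2 was 0.470, median depths were 9270 UMIs in PTIR1 and 4741 in mock, and where it was 0.519 they were 9044 and 8981. The part of depth in these ratios was not tested. Mrc1 ranged from 0.943 to 1.40 and Il4ra from 1.09 to 1.40, and the interval of each lowest value included 1. The C1q genes are macrophage gate markers, the subgroups are ranges of a per-cell score, and the differences between subgroup ratios were not tested. Macrophage barcodes with high interferon-induced transcripts, 17.9% of the PTIR1 and 29.6% of the mock gate, had little Cd163, at 1.51 CPM (4 UMIs) and 0.520 CPM (3 UMIs), against 11.4 and 2.33 CPM in the others.

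**Figure D4:**
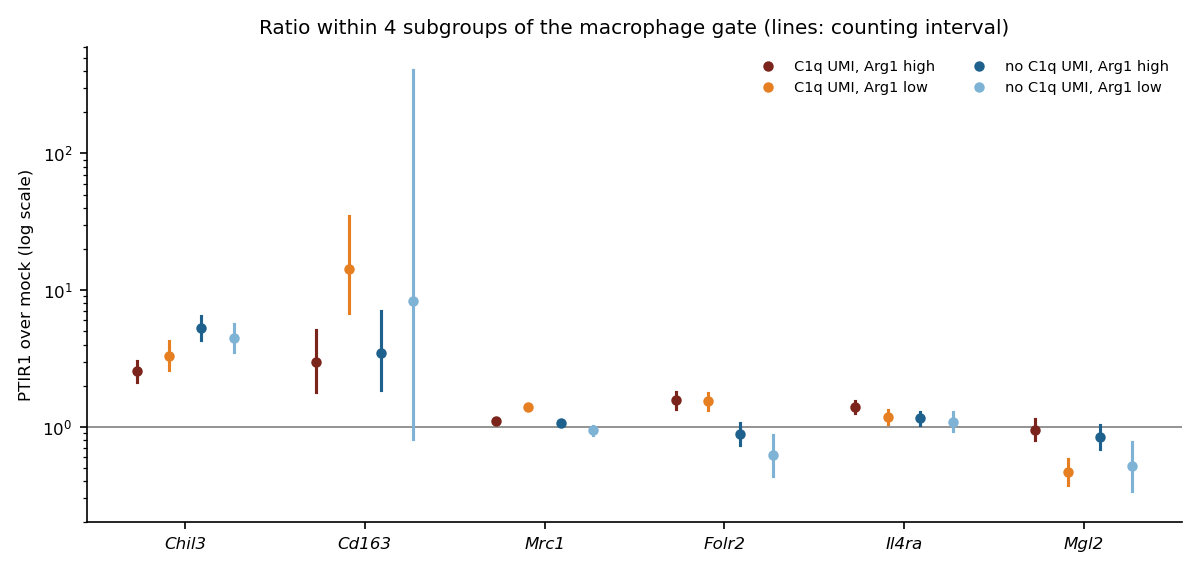
Ratio of PTIR1 over mock (y axis, log scale) for 6 genes (x axis) in 4 subgroups of the macrophage gate by C1q and Arg1 UMIs (colours), with 95% counting intervals. Chil3 and Cd163 lie above 1 in each subgroup, Folr2 lies above 1 with C1q (1.57 and 1.54) and below it without (0.885 and 0.620), and Mgl2 is lowest in the Arg1 low subgroups. The intervals of Folr2 at 0.885 and of Cd163 with neither C1q nor high Arg1 include 1.

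The members overlapped unevenly in macrophage barcodes. In macrophages thinned to 5000 UMIs, 23 PTIR1 barcodes had Cd163, and 65.2% of them (42.7 to 83.6%) had Folr2, against 14.2% of barcodes without Cd163. C1qa was in 47.8% of the barcodes with Cd163 and 23.1% of those without. Barcodes with Folr2 also had Mrc1 more often, at 93.0% against 68.5% in PTIR1 and 89.3% against 64.0% in mock. Of PTIR1 barcodes with Folr2, 13.3% (8.19 to 19.97%) had Chil3, against 15.2% (12.8 to 17.9%) of those without, and these intervals overlap. In mock the shares were 2.37% with Folr2 and 7.45% without. Cells share a library, so these shares describe it and were not tested.

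Other genes of the pathway, from lists chosen with earlier results of these data known, give the setting. As a background, 5336 of 11167 genes measured in the macrophage gate, 5085 of 10222 in the monocyte gate and 3922 of 8488 in the dendritic gate were higher in PTIR1. Of 11 measured signalling genes in the macrophage gate, 8 were higher and 3 lower in PTIR1, with a median log2 ratio of 0.12. In the monocyte gate 5 of these 11 were higher and 6 lower (median -0.05), and in the dendritic gate 6 and 5 (median 0.09). Stat6, which carries the signal to the nucleus, had 81.5 CPM in PTIR1 and 79.4 CPM in mock (1.03, 0.957 to 1.10). Socs3, a feedback inhibitor of cytokine receptors, was at 289 and 212 CPM, and Socs1, another inhibitor that interferon induces, at 34.9 and 43.4 CPM. The ligands were barely seen in macrophages, with 2 PTIR1 and 7 mock UMIs of Il4 and 3 and 1 of Il13. Il4 was highest in the mast cell and basophil gate, at 103 CPM in PTIR1 (48 UMIs) and 65.6 CPM in mock (96 UMIs). The T cell gate held 24 Il13 UMIs in 3 PTIR1 barcodes and 2 UMIs in 1 mock barcode.

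Of 9 transcription factors and regulators of alternative activation, 8 were higher and 1 lower in PTIR1 macrophages (median 0.52). Egr2, a factor that interleukin 4 induces, had 43.0 CPM in PTIR1 and 21.3 CPM in mock, a ratio of 2.02 (1.80 to 2.27). Klf4, which works with Stat6, had 328 and 179 CPM, Bhlhe40 189 and 106 CPM, Cebpb 1748 and 1226 CPM and Kdm6b, a histone demethylase, 141 and 98.6 CPM. In monocytes again 8 were higher and 1 lower (median 0.43), with Egr2 at 45.8 and 25.3 CPM. In dendritic cells 7 of 8 measured were higher (median 0.51). Of 15 further alternative activation genes 12 were higher and 3 lower in macrophages (median 0.38). Of 14 measured in monocytes, 8 were higher and 6 lower (median 0.50), and of 14 in dendritic cells 11 and 3 (median 0.23). The chemokine Ccl24 stood at 718 CPM in PTIR1 and 311 CPM in mock, a ratio of 2.31 (2.24 to 2.37). Ccl17 was 2.36 and 0.599 CPM in macrophages but 1.06 and 3.30 CPM in monocytes. Plbd1 and the elastase Mmp12 were lower, at 82.8 and 140 CPM and at 359 and 513 CPM.

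Genes of tissue-resident macrophages were divided, with 9 higher and 5 lower of 14 in the macrophage gate (median 0.11). Ltc4s, a leukotriene synthase, had 8.02 CPM in PTIR1 and 0.984 CPM in mock, a ratio of 8.15 (5.22 to 13.3), and Fcna, a ficolin, 10.96 and 3.81 CPM. Cbr2 had 29.1 and 12.3 CPM. Timd4, a receptor for dying cells, was lower, with 7 PTIR1 and 69 mock UMIs (0.404 and 2.95 CPM), as was the chemokine Ccl8, at 178 and 413 CPM. Of serous cavity and alveolar macrophage genes 4 of 10 were measured, with Car4 at 10.0 and 0.385 CPM and Saa3 at 6.40 and 0.813 CPM higher, and Icam2 and Fabp4 lower. In both lists genes thus lay on either side of 1.

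Across 21 points, each a gate of 1 library with at least 50 barcodes, the genes most like 6 of the members in log2(CPM + 1) were named by their correlation. Mrc1 went with Trem2 (Pearson r = 0.96), Abcc3 and C3ar1, and Folr2 with Adgre1 (r = 0.90), Ccl12 and C1qa. Chil3 was closest to Thbs1 (r = 0.86), Tfec and Ccl24, Mgl2 to Cst3 (r = 0.87), Tnip3 and Rab43, and Il4ra to Nt5e (r = 0.88), Tlr1 and Pde8a. The haemoglobin genes Hba-a2 (r = 0.71), Hba-a1 and Hbb-bs were closest to Retnla, whose points rest on few barcodes. Trem2, Adgre1, C1qa and Tnip3 are themselves gate markers, and the points share libraries and depth, so these values are descriptions with no p.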

How the data were processed

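Both libraries were made with 10x Chromium 3′ v3.1 chemistry, per the labels. The authors deposited raw UMI counts per gene and barcode, 1 matrix per library. The submitters' processing notes name Cell Ranger 5.0.0, Seurat 3.2.3 and mm10, with no settings. The deposited totals were 98540561 UMIs in PTIR1 and 95166611 in mock. Barcodes with fewer than 200 detected genes, or with over 10% of UMIs from mitochondrial genes, were dropped. The Scrublet automatic threshold in scanpy 1.11.5 called 87 doublets in PTIR1 (1.15%) and 0 in mock, where the 696 barcodes with the highest scores (7.46%) were removed instead. Barcodes whose second marker list reached 0.5 of the first were set apart as mixed. UMIs were summed per gate and divided by all UMIs of the gate. Levels have exact Poisson, shares exact binomial (Clopper-Pearson) and ratios exact conditional binomial intervals at 95%. PCR duplicates were already collapsed by molecular identifier. A gene was measured at 50 UMIs over both libraries, and called at 2-fold. C1q barcodes have at least 1 UMI of C1qa, C1qb or C1qc. Arg1 was divided at the median and interferon-induced UMIs at the 0.75 quantile of both libraries.

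The interval code was tested on simulated counts. No test was run, as there is 1 library per group. The members and all lists were chosen with earlier results of these data known. All 7 members are named, with up to 5 genes of each further list in each direction in the macrophage gate, ranked by the interval end nearest to 1, and the 3 genes most like each member, which for Cd163 are not reported here. Of 72 further genes, 70 had a single row. Alternatives covered filters, doublets, gate cut, weighting, thinning, minimum UMIs and removal of top barcodes. Other tools were numpy 2.4.6, pandas 2.3.3, scipy 1.17.1, anndata 0.12.19, scikit-learn 1.9.0 and matplotlib 3.10.9, run in Python 3.11.15.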

Additional observations from a re-analysis of the deposited data

Results flagged for a closer look

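Mrc1 was higher in the PTIR1 than in the mock monocyte gate, with a ratio of 1.69, but lower in the PTIR1 immature neutrophil gate, with a ratio of 0.414, where the mock gate has 3 barcodes and 10 Mrc1 UMIs. Mgl2 was higher in PTIR1 monocytes, with a ratio of 1.25, but lower in PTIR1 macrophages, with a ratio of 0.726. In both cases the ratios lie on opposite sides of 1, and the difference between the gates was not tested.

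Barcodes with markers of more than 1 lineage, 523 in PTIR1 and 400 in mock, enter no gate but carried 3 of the genes at different levels. Retnla stood at 26.5 CPM in PTIR1 and 1.79 CPM in mock, Chil3 at 86.0 and 16.1 CPM, and Cd163 at 14.7 and 1.10 CPM. The Retnla values rest on few barcodes: 1 barcode held 198 of the 289 PTIR1 UMIs, and 2 barcodes held the 13 mock UMIs. Mixed barcodes can hold material of more than 1 cell, and no test was possible with 1 library per group. Doublet removal took 1.15% of PTIR1 and 7.46% of mock barcodes, and its part in these levels was not tested.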

How the results depend on the processing

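No paired analysis was possible because there is 1 library per group. Of 159 recomputed main results, 128 stayed within the range taken as the same, 31 moved and 0 reversed. Counts among these could only stay or move by their rule. The same held for the dendritic and immature neutrophil medians, whose ranges included 0. The 0 thus says little about direction. Of 328 values of single members, 257 stayed, 61 moved and 10 reversed. The settings that leave out barcodes by other cells' markers, the single top barcode, or barcode sequences found in both libraries were chosen after seeing the data. The median log2 ratio of PTIR1 over mock in macrophages (0.35) was 0.50 with mixed barcodes kept, 0.47 with equal weights, 0.63 without immature neutrophil markers and 0.80 without both neutrophil lists, where 1 member was at least 2-fold higher instead of 2. In monocytes (1.61, 4 members) it was 0.69 with 2 members under a doubled gate cut, 1.23 with equal weights, 0.80 at 1000 UMIs, 0.63 with 2 members without the top 1% of barcodes, 0.53 with 0 members without both neutrophil lists, and 0.92 without cDC2 markers. In immature neutrophils (-0.36, 0 members) it was -1.66 at 1000 UMIs, -1.27 at a minimum of 10 UMIs and -1.47 with no minimum, and 1 member was at least 2-fold higher with mixed barcodes kept, without the top 1% and without the top barcode. A member with 0 mock UMIs enters at a floor of 3 UMIs, which sets its value. The monocyte medians of 0.80 and 0.63 are the Cd163 value (4 PTIR1 and 0 mock UMIs in each setting). The -1.66, -1.27 and -1.47 of immature neutrophils rest on such floor values too. For -1.27 and -1.47 these include Folr2 and Mgl2, each with 13 PTIR1 and 0 mock UMIs. None of these medians shows a smaller or lower value. In dendritic cells (0.20, 1 member) the median was 0.56 with mixed barcodes kept and -0.050 with no minimum. With no minimum Retnla, at 2 PTIR1 and 0 mock UMIs, enters at the floor, so -0.050 does not show a lower value either. The count there was 0 with 20% mitochondrial UMIs, 500 genes, equal doublet shares, 1000 UMIs, the top barcode left out, or cDC1 and cDC2 alone, and 2 with mixed barcodes kept, a minimum of 10 UMIs or none. Single values that reversed were Mgl2 in monocytes (-1.11 with the doubled cut, -0.22 at 1000 UMIs), in macrophages (0.13 with equal weights, 0.26 at 1000 UMIs, 0.80 without neutrophil lists) and in dendritic cells (0.048 with equal doublet shares, 0.22 at 1000 UMIs, 0.030 in cDC1 and cDC2 alone), and at 1000 UMIs Chil3 (-0.17) and Mrc1 (-0.054) in dendritic cells. The cause was not tested. Chil3 in macrophages ranged from 1.70 to 2.66 over its alternatives. Retnla, Cd163 and the 3 mock immature neutrophil barcodes are limited by few UMIs or few cells.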
